A study of Mus musculus with 48 samples.

Results

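The genes described here encode the main carriers that take amino acids back from the filtrate in the proximal tubule of the kidney, and their accessory subunits. They were chosen by name as a functional class, and 8 of the 9 named genes had values among the 12423 genes listed in both assays: Slc6a19, Slc6a18, Slc7a9, Slc3a1 and Slc1a1 of the apical (brush border) membrane, and Slc7a7, Slc7a8 and Slc3a2 of the basolateral membrane. Tmem27 was not analysed here. Whole kidneys of C57BL/6JRj male mice, 11 to 12 weeks old, were profiled by RNA sequencing (RNA-seq) and by sequencing of ribosome-protected mRNA fragments, or footprints (RPF-seq). The mice were kept in a cycle of 12 h light and 12 h dark with free access to food and were sampled every 2 h at 12 Zeitgeber times (ZT, hours after lights-on). Each timepoint had 2 pools, each pool was made from 2 animals, and both assays were run for each of the 24 pools, giving 48 libraries. The time course answers whether the transcripts of these carriers, and the ribosomes on them, change over the day. A library of pooled animals shows no difference between animals of 1 pool, and in whole kidney fewer cells of a type and less RNA per cell cannot be told apart.

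The kidney filters free amino acids out of the blood and recovers nearly all of them. Carriers of the brush border bring them into the proximal tubule cell, largely with sodium, and exchangers of the basolateral membrane pass them on to the blood. Several carriers work as pairs, in which a heavy subunit carries the transporting light subunit to the membrane: Slc3a1 pairs with Slc7a9, and Slc3a2 with Slc7a7 or Slc7a8. Inherited loss of single members gives known aminoacidurias, Hartnup disorder for Slc6a19, cystinuria for Slc7a9 or Slc3a1, and lysinuric protein intolerance for Slc7a7.

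Of the 2 members whose footprints changed at least 1.5-fold over the day, Slc6a19 and Slc7a9, the start window of Slc7a9 is shown and that of Slc6a19 is not reported here, so the letters below say nothing of what these members share. The window runs from 250 bases before to 50 bases after the first of 2 starts annotated by RefSeq in GRCm38.p6 (chr7:35448842-35449141, plus strand). Capitals mark the nuclear receptor core AGGTCA, found here on the minus strand. The E-box CACGTG and the D-box TTATGTAA were searched on both strands too and are not among the letters of this window.
Slc7a9: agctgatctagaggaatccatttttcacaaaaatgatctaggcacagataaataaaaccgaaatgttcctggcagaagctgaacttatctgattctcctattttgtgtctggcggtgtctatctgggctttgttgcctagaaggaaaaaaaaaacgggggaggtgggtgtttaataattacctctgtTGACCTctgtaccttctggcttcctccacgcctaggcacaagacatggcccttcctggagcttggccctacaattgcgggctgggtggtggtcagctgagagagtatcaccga

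Of 32817 RefSeq promoter windows of the same length, 16.3% held AGGTCA, 7.15% CACGTG and 0.935% TTATGTAA. A match describes the letters only.

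Translation starts were compared because the members differed in ribosome load. The 10 bases around the start codon of each principal transcript are given below, with the start codon in capitals.
Slc6a19: accaccATGg
Slc6a18: ctcatcATGg
Slc7a9: gcaaccATGg
Slc3a1: gtagacATGg
Slc1a1: ctcaccATGg
Slc7a7: ttcgccATGg
Slc7a8: agaaagATGg
Slc3a2: ggcaccATGa

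Similarity to the Kozak consensus, scored from 0 to 13 by the scheme of the study's methods, was 12 for Slc7a9, 10 for Slc6a19 and Slc3a1, 9 for Slc1a1, Slc7a7 and Slc3a2, 8 for Slc6a18 and 6 for Slc7a8. The median over 11716 scored genes was 7, so Slc7a8 was the sole member below it. Coding transcripts of Slc3a2 in the annotation had 3 different start contexts, those of each other member 1.

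Read numbers could be recovered from the RPKM steps as the smallest whole numbers that hold in all libraries. The members' coding sequences held between 1080 and 43981 reads per RNA library and between 2241 and 62602 per footprint library. The lowest of these counts had a Poisson counting error (1 SD) of 3.04% for RNA and 2.11% for footprints. Relative depth ran from 0.598 to 2.04 in RNA-seq and from 0.701 to 1.58 in RPF-seq, with medians of 1.14 in the light and 0.812 in the dark for RNA-seq and of 1.18 and 0.910 for RPF-seq. A footprint library of ZT4 stood apart, with 162 genes at 0 against at most 23 in the others.

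All 8 members were abundant. Levels were compared as RPKM, read counts on the coding sequence divided by its length and by the normalised library size, which are comparable between genes of different length. Averaged over the day, every member lay at or above the 86.7th percentile of the 11863 tested genes at the RNA level and the 87.7th at the footprint level. Slc3a1, the heavy subunit of the cystine and basic amino acid carrier, was the most abundant member, with 625 ± 65.8 RPKM at the RNA level and 835 ± 58.2 RPKM in footprints (mean ± SD over 24 pools). It exceeded the next member in 24 of 24 pools in both assays.

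A second tier held 3 apical carriers with near-equal RNA levels. Slc6a18, a neutral amino acid carrier, had 218 ± 25.8 RPKM, Slc1a1, the glutamate and aspartate carrier, 213 ± 16.2 RPKM, and Slc6a19, the main neutral amino acid carrier, 210 ± 64.3 RPKM. Neighbours in this tier held their order in 13 and 14 of 24 pools and did not differ beyond their spread. In footprints the same genes stood at 383 ± 113 RPKM for Slc6a19, 380 ± 26.2 RPKM for Slc1a1 and 363 ± 42.3 RPKM for Slc6a18.

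The remaining RNA levels lay close together. Slc7a7, the basolateral exchanger for basic amino acids, had 99.2 ± 13.8 RPKM, its heavy subunit Slc3a2 99.0 ± 7.47 RPKM, Slc7a9, the transporting subunit of the cystine carrier, 85.4 ± 10.5 RPKM, and Slc7a8, the basolateral exchanger for neutral amino acids, 80.7 ± 8.70 RPKM. Footprints spread these genes apart, with 228 ± 20.3 RPKM for Slc3a2 and 182 ± 23.4 RPKM for Slc7a8, against 105 ± 18.5 RPKM for Slc7a9 and 103 ± 13.1 RPKM for Slc7a7. Slc3a2 exceeded Slc7a8, and Slc7a8 exceeded Slc7a9, in 24 of 24 pools, while Slc7a9 and Slc7a7 held their order in 12.

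Translation efficiency (TE), the ratio of footprint to RNA RPKM within a pool, differed between members. Slc3a2 and Slc7a8 had the highest TE, 2.31 ± 0.184 and 2.26 ± 0.200, at the 97.8th and 97.6th percentile of tested genes, and did not differ from each other beyond their spread, with Slc3a2 higher in 13 of 24 pools. Slc6a19, Slc1a1 and Slc6a18 followed with 1.84 ± 0.167, 1.79 ± 0.116 and 1.67 ± 0.134. Slc3a1 had 1.34 ± 0.123, Slc7a9 1.22 ± 0.113 and Slc7a7 1.05 ± 0.122, which put Slc7a7 at percentile 56.2. The order of TE did not follow the Kozak score: Slc7a8, with the lowest score, had the second highest TE, and Slc7a9, with the highest score, had the second lowest.

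The daily course was tested with a cosine of 24 h fitted to the log2 RPKM of each gene, by limma's moderated F test with Benjamini-Hochberg adjustment over all 11863 genes (false discovery rate, FDR). A gene with an FDR under 0.05 had a 24-h component, and one whose fitted peak-to-trough fold also reached 1.5 was called rhythmic. At the RNA level 7 of 8 members had a 24-h component, against 48.6% of all tested genes, and 1 was rhythmic, against 10.2%. At the footprint level 5 had a component, against 30.9%, and 2 were rhythmic, against 7.58%. For TE, where the test asks whether footprints and RNA follow different daily courses, 4 had a component, against 17.1%, and 0 reached 1.5-fold, against 3.74%. With 1 pool per timepoint in place of 2, components fell to 3 and 5 members in RNA, to 2 and 4 in footprints and to 0 and 0 in TE (first without replicate 1, then without replicate 2), while the rhythmic calls of Slc6a19 in both assays and of Slc7a9 in footprints held in each. With the relative depth of the libraries as a covariate all member calls held except the TE component of Slc7a8 (FDR 0.0699). Without both ZT4 pools the same TE component missed the threshold (FDR 0.0559) and all other member calls held. The median fitted fold over the 5 apical members was 1.31 for RNA and 1.23 for footprints, that over the 3 basolateral members 1.21 and 1.26, and that over all tested genes 1.20 and 1.18.

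**Figure D1:**
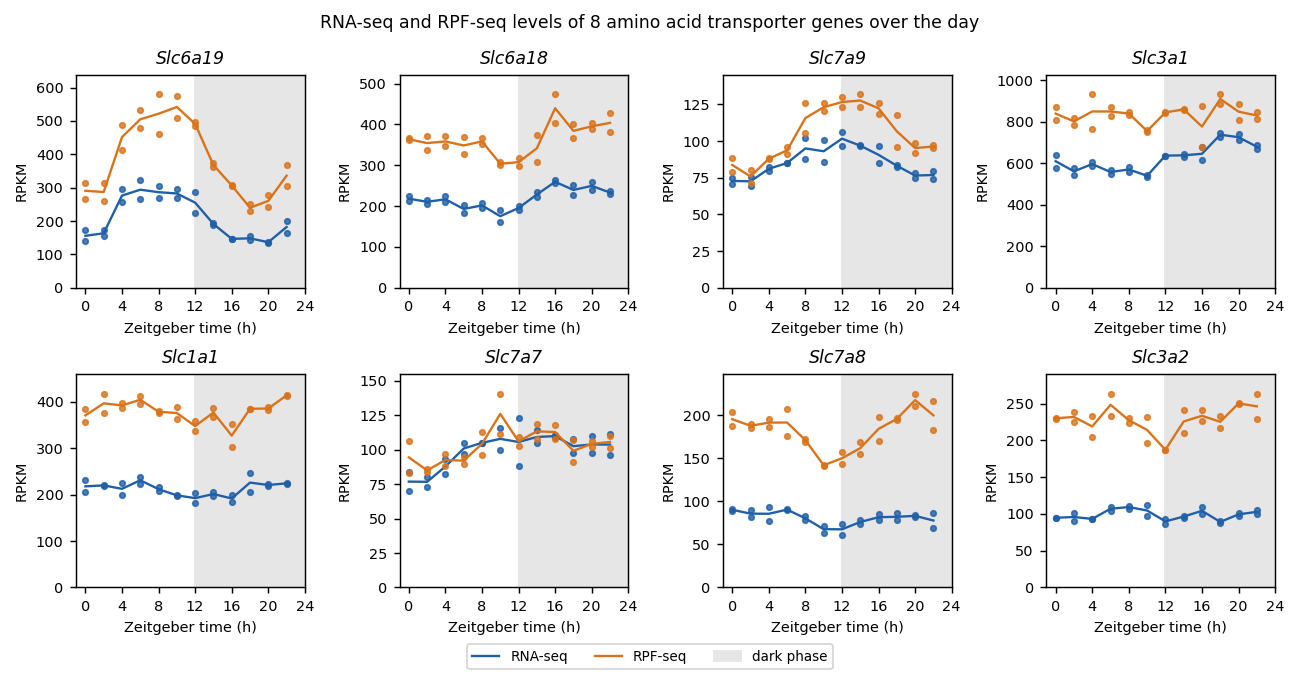
RNA-seq (blue) and RPF-seq (orange) RPKM of the 8 genes against Zeitgeber time in hours; points are single pools, lines join the means of the 2 pools of a timepoint, and grey marks the dark phase. Slc6a19 rises after ZT2 and falls after ZT12 in both assays, with footprint means from 239.8 RPKM at ZT18 to 542 RPKM at ZT10. The RNA means of Slc3a2 range only from 89.2 to 109 RPKM.

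Slc6a19 had the largest daily change of the members. Its RNA stood at 155 and 172 RPKM in the pools of ZT2 and at 256 and 296 RPKM in those of ZT4, a 1.69-fold rise of the mean in 2 h. It then stayed high through ZT12, with its highest mean at ZT6 (323 and 265 RPKM), and reached its lowest at ZT20 (138 and 135 RPKM). All 10 pools from ZT4 to ZT12 (at least 224 RPKM) lay above all 14 other pools (at most 201 RPKM).

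The fitted RNA curve of Slc6a19 had a peak-to-trough fold of 2.14 (log2 1.09 ± 0.107, SE) and peaked 7.86 ± 0.373 h after lights-on (FDR 8.7e-08, limma). Footprints followed closely. They rose from 260 and 314 RPKM at ZT2 to 414 and 489 RPKM at ZT4, reached 509 and 576 RPKM at ZT10 and fell to 251 and 229 RPKM at ZT18. The footprint fit gave 2.10-fold, with a peak at 8.42 ± 0.379 h (FDR 2.1e-07). No 24-h component of TE passed the test for Slc6a19 (1.12-fold, FDR 0.276), and its TE lay between 1.49 and 2.17 in all pools.

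Slc6a18 ran the other way. This gene lies next to Slc6a19 on the same strand of chromosome 13, the annotated genes (chr13:73661752-73678023 and chr13:73679745-73704865) being 1721 bases apart. Its RNA was lowest at ZT10 (160 and 190.2 RPKM), when Slc6a19 was near its highest, and highest at ZT16 (263 and 256 RPKM). The fitted change was 1.31-fold in RNA with a peak at 19.5 ± 0.632 h (FDR 1.2e-04) and 1.23-fold in footprints with a peak at 20.6 ± 0.954 h (FDR 0.0110).

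The ratio of these neighbours swung more than either gene. Slc6a19 RNA was 0.531 and 0.565 times that of Slc6a18 in the pools of ZT20 and 1.69 and 1.55 times at ZT10. In footprints the ratio was 0.682 and 0.571 at ZT18 and 1.66 and 1.92 at ZT10. The fitted ratio changed 2.79-fold in RNA and 2.58-fold in footprints, with an adjusted p of 2e-05 in each (permutation test of the cosine fit with 100000 permutations over 24 libraries, one-sided, adjusted over the 10 ratios tested, from the smallest p the permutations can give, 1e-05). Over the 24 libraries of an assay, which share the timepoints and the scaling of each library, Pearson's r of the log2 levels was -0.73 in RNA and -0.55 in footprints.

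Slc7a9 was the second member with rhythmic footprints, and its change was larger in footprints than in RNA. Its RNA was lowest at ZT2 (69.3 and 75.7 RPKM) and highest at ZT12 (106 and 96.9 RPKM). Footprints went from 71.7 and 79.9 RPKM at ZT2 to 123 and 132 RPKM at ZT14, and the pools of these timepoints did not overlap. The fit gave 1.35-fold for RNA with a peak at 11.7 ± 0.441 h (FDR 1.1e-06), under the 1.5-fold limit, and 1.59-fold for footprints with a peak at 13.1 ± 0.346 h (FDR 3.5e-08).

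TE of Slc7a9 had a 24-h component. It was lowest at ZT2 (1.03 and 1.06) and highest at ZT16 (1.31 and 1.40), with a fitted fold of 1.23 and a peak at 15.1 ± 0.744 h (FDR 0.00553). The TE range over the dark phase, 1.16 to 1.41, overlapped that over the light phase, 1.03 to 1.41.

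Slc3a1, the partner of Slc7a9, had a daily course in RNA, and none passed the test in footprints. RNA was lowest at ZT10 (534 and 546 RPKM) and highest at ZT18 (729 and 747 RPKM), 1.28-fold in the fit with a peak at 18.6 ± 0.555 h (FDR 2.5e-05). Footprints at the same timepoints were 763 and 749 RPKM and 935 and 886 RPKM, but the fit over all timepoints gave 1.03-fold (log2 0.05 ± 0.063, SE; FDR 0.813). The replicate series differed here: without replicate 2 the footprint fit was 0.19 on the log2 scale with a peak at 18.045 h (FDR 0.118), and without replicate 1 it was 0.13 with a peak at 4.12 h (FDR 0.712). The RNA change, log2 0.36 with both replicates, was 0.29 without replicate 1, 0.43 without replicate 2 and 0.22 after quantile normalisation. TE of Slc3a1 was 1.51 and 1.54 at ZT6 and 1.20 and 1.14 at ZT20. Its 24-h component was 1.25-fold with a peak at 6.34 ± 0.638 h (FDR 0.00184).

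The ratio of the light subunit Slc7a9 to its partner Slc3a1 changed over the day in both assays. In RNA it went from 0.105 and 0.106 at ZT20 to 0.160 and 0.184 at ZT10, 1.55-fold in the fit with a peak at 9.48 h. In footprints it went from 0.0915 and 0.0975 at ZT2 to 0.158 and 0.168 at ZT10, 1.61-fold with a peak at 12.8 h. Both had an adjusted p of 2e-05 (permutation test). At every timepoint Slc3a1 exceeded Slc7a9 per length of coding sequence, the ratio never passing 0.184 in RNA or 0.175 in footprints.

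**Figure D2:**
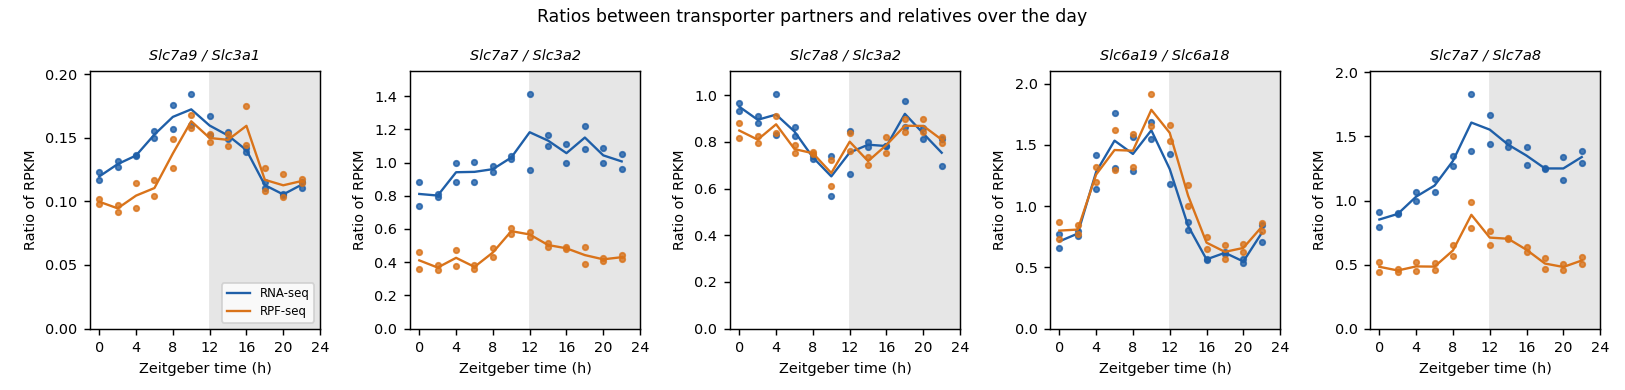
Ratio of RPKM within a pool for 5 gene pairs against Zeitgeber time in hours, in RNA-seq (blue) and RPF-seq (orange); points are pools, lines the timepoint means and grey the dark phase. The Slc6a19 to Slc6a18 ratio spans 0.531 to 1.76 in RNA, and the Slc7a7 to Slc3a2 ratio lies lower in footprints than in RNA at all timepoints.

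Slc1a1 changed least among the apical members at the RNA level. Its RNA pools lay between 182 and 247 RPKM and the fitted fold was 1.14 with a peak at 0.608 ± 1.17 h (FDR 0.0281). Footprints lay between 303 and 418 RPKM with a fitted fold of 1.12 that missed the threshold (FDR 0.0685), and no 24-h component of TE passed (1.05-fold, FDR 0.703).

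The basolateral exchangers Slc7a7 and Slc7a8 peaked at different times, near lights-off and near lights-on in RNA and at 13.8 h and 22.7 h in footprints. Over the 24 libraries of an assay, Pearson's r of their log2 levels was -0.25 in RNA and -0.39 in footprints. Both lie on the minus strand of chromosome 14 (chr14:54369442-54417780 and chr14:54722209-54781946), 304 kb apart. Slc7a7 RNA rose from 80.4 and 73.0 RPKM at ZT2 to 111 and 109 RPKM at ZT16, 1.33-fold in the fit with a peak at 13.7 ± 0.817 h (FDR 0.00173). Its footprints were 83.7 and 86.4 RPKM at ZT2 and 111 and 141 RPKM at ZT10, 1.26-fold with a peak at 13.8 ± 0.914 h (FDR 0.00794).

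Slc7a8 RNA was instead lowest at ZT12 (73.7 and 61.4 RPKM) and highest at ZT6 (90.0 and 90.8 RPKM), 1.21-fold with a fitted peak at 0.669 ± 1.08 h (FDR 0.0165). The change was clearer in footprints, which went from 141 and 142 RPKM at ZT10 to 210.1 and 225 RPKM at ZT20, 1.34-fold with a peak at 22.7 ± 0.620 h (FDR 2.0e-04). TE of Slc7a8 was 2.55 and 2.68 at ZT20, against 1.97 and 2.25 at ZT10. Its 24-h component was 1.17-fold with a peak at 20.4 ± 1.11 h and stood just inside the threshold (FDR 0.0495).

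The Slc7a7 to Slc7a8 ratio went from 0.913 and 0.791 at ZT0 to 1.39 and 1.83 at ZT10 in RNA, and from 0.441 and 0.466 at ZT2 to 0.788 and 0.989 at ZT10 in footprints. The fitted folds were 1.59 (adjusted p = 2e-05, permutation test) and 1.62 (adjusted p = 6.7e-05, permutation test).

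Slc3a2, the heavy subunit that both exchangers share, was the member with the flattest RNA. Its RNA pools lay between 87.0 and 112 RPKM, with a fitted fold of 1.06 (FDR 0.465). Footprints lay between 187 and 264 RPKM, with their lowest mean at ZT12 (187 and 188 RPKM) and a fitted fold of 1.14 that missed the threshold (FDR 0.104). TE of Slc3a2 had a 24-h component of 1.19-fold with a peak at 21.9 ± 0.904 h (FDR 0.0169), from 2.01 and 2.08 at ZT10 to 2.41 and 2.65 at ZT18.

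Against this subunit, Slc7a7 changed 1.34-fold in RNA (adjusted p = 8.6e-05) and 1.40-fold in footprints (adjusted p = 3.4e-04), with peaks at 14.5 h and 12.8 h, both by permutation test. Slc7a8 changed 1.23-fold in RNA (adjusted p = 0.0118) and 1.18-fold in footprints (adjusted p = 0.00149), with peaks at 23.5 h and 22.5 h. Both Slc7a8 ratios missed the threshold in the pools of replicate 1 alone (adjusted p = 0.321 and 0.137, permutation test).

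**Figure D3:**
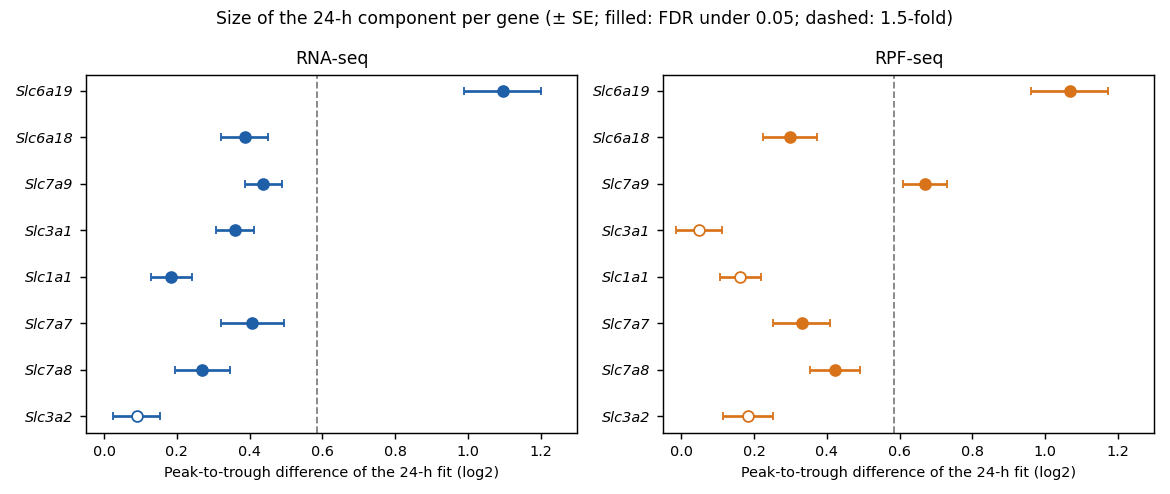
Peak-to-trough difference of the fitted 24-h curve on the log2 scale for each gene in RNA-seq (left) and RPF-seq (right), with bars of 1 SE; filled points have an FDR under 0.05 and the dashed line marks 1.5-fold. Slc6a19 lies past the line in both assays and Slc7a9 in footprints only.

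**Figure D4:**
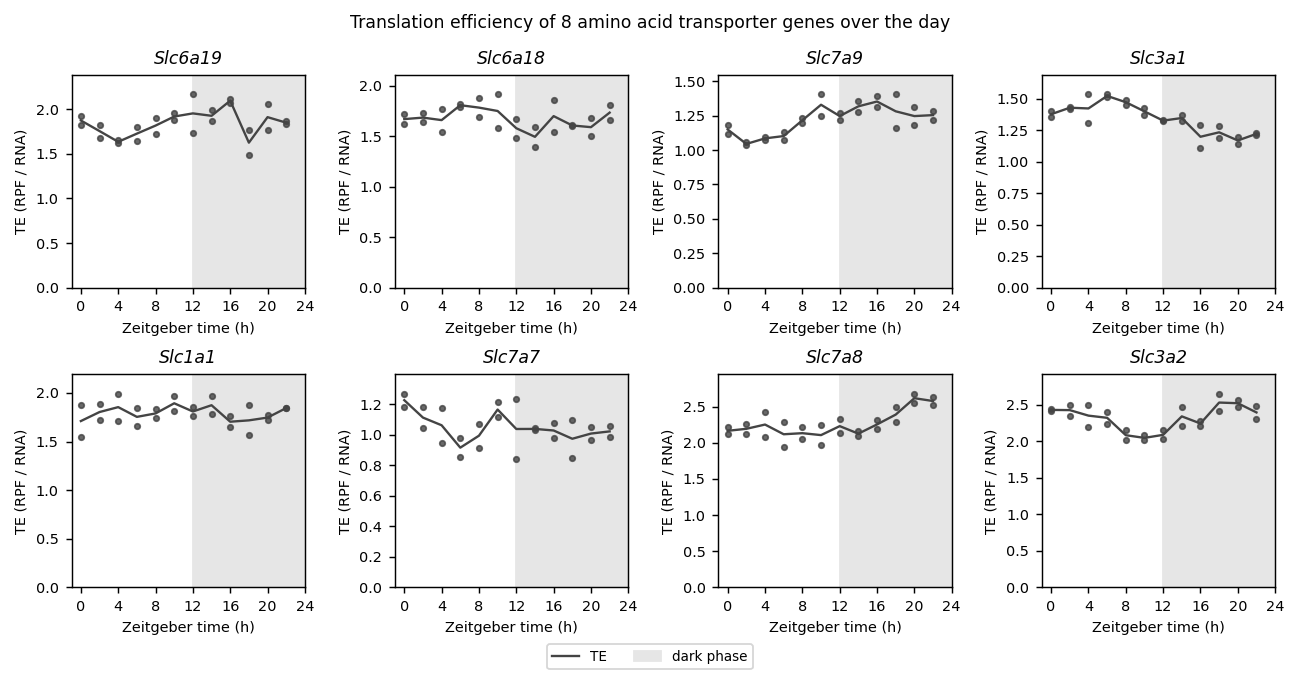
TE, the ratio of footprint to RNA RPKM within a pool, of the 8 genes against Zeitgeber time in hours; points are pools, lines the timepoint means and grey the dark phase. Slc3a1 is highest at ZT6 (mean 1.52) and lowest at ZT20 (1.17), and Slc7a8 highest at ZT20 (2.62).

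Peak times of the members with a 24-h component were spread over the whole day and did not separate the apical from the basolateral side. RNA peaks fell at 7.86 h for Slc6a19, 11.7 h for Slc7a9 and 13.7 h for Slc7a7, then at 18.6 h for Slc3a1 and 19.5 h for Slc6a18, and just after lights-on, at 0.608 h and 0.669 h, for Slc1a1 and Slc7a8. The RNA peaks of these last genes were loosely placed, at 23.2 h and 22.7 h without replicate 1, at 2.01 h and 2.92 h without replicate 2, and at 20.6 h and 3.90 h with an added 12-h harmonic, which also moved the peak of Slc7a7 RNA to 17.9 h. Footprint peaks fell between 8.42 h and 13.8 h for Slc6a19, Slc7a9 and Slc7a7, and between 20.6 h and 22.7 h for Slc6a18 and Slc7a8. These genes were grouped by the peak times themselves, and both groups hold transporting proteins. The footprint peak of Slc7a7 lay at 12.4 h without replicate 1 and at 15.9 h without replicate 2.

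The time courses most like that of Slc6a19, by Pearson's r of log2 RPKM over 48 libraries centred within the assay, were those of Parp10 (0.886), Itga8 (0.884), Accs (0.879), Nr1d1 (0.872) and Wipi1 (0.869). Nr1d1 encodes a clock repressor, and its footprints changed 20.9-fold with a peak at 7.69 h. For Slc7a9 they were those of Ephx1 (0.868), Per3 (0.854), Decr2 (0.848), Per1 (0.845) and Dhtkd1 (0.845), of which Per1 and Per3 are clock genes. These values describe likeness in shape alone, since Per3 RNA changed 6.09-fold and Slc7a9 RNA 1.35-fold.

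Of 37 other amino acid and peptide carriers and related solute carriers, 32 were tested. At the RNA level 17 had a 24-h component and 4 were rhythmic, at the footprint level 14 and 5, and for TE 8 and 1. The shares over all tested genes were 48.6% and 10.2% in RNA, 30.9% and 7.58% in footprints, and 17.1% and 3.74% for TE. Their median fitted fold was 1.26 in RNA and 1.24 in footprints. The rhythmic genes with the largest footprint change were Slc6a12, a betaine and GABA carrier (2.75-fold, peak at 13.5 h, FDR 0.0168), Slc43a1, a neutral amino acid carrier (2.22-fold, peak at 10.3 h, FDR 0.00337), and the glutamine and neutral amino acid carrier Slc38a2 (1.66-fold, peak at 18.1 h, FDR 4.1e-04), followed by Slc38a4 (1.58-fold, FDR 0.0102) and the glutamate carrier Slc1a2 (1.57-fold, FDR 0.00118). Of these only Slc38a2, with mean footprints of 52.7 RPKM, came near the levels of the members, the other 4 lying between 0.570 and 2.86 RPKM.

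Some markers of the proximal tubule, the cells known to carry these genes, had a 24-h component too. Of 10 proximal tubule markers 6 had one in RNA, against 48.6% of all tested genes, and 5 in footprints, against 30.9%. In both assays 0 were rhythmic, against 10.2% and 7.58% of all tested genes. The largest footprint folds were 1.45 for Slc5a12, 1.42 for Aqp1 and 1.35 for Slc22a8, above those of every member but Slc6a19 and Slc7a9. The summed RPKM of the list, to which Slc34a1 and Lrp2 contribute most, ranged 1.13-fold over timepoints in RNA and 1.19-fold in footprints. Of 20 markers of other kidney cells 15 and 10 had a component and 3 were rhythmic in each assay (over all tested genes 48.6% and 30.9% had a component and 10.2% and 7.58% were rhythmic), and their sum ranged 1.26-fold and 1.44-fold, with its highest value at ZT16. No marker was listed at 0 in any library, and their part in the members' courses was not tested.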

How the data were processed

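RNA-seq and RPF-seq libraries from 24 pools of mouse kidneys were analysed as the tables of RPKM values that the authors deposited, 1 per library. Per the study's methods and the submitters' processing notes, reads were trimmed with cutadapt, filtered and aligned with Bowtie2 (2.2.1) and TopHat2 (2.0.11) to GRCm38.p2, and reads on coding sequences were scaled by upper quantile normalisation. Upper quantile scaling assumes that most genes do not change between libraries. The RPKM values were used as log2(RPKM + 0.1), which slightly understates changes of low genes. The 11863 genes with a median of at least 0.5 RPKM in both assays were fitted with 24-h cosine and sine terms in limma (3.58.1, R 4.3.3) with Benjamini-Hochberg adjustment. TE was fitted as the log2 ratio within a pool, which tests the interaction of assay and time. Ratios between members were tested by permuting the timepoints 100000 times; the ratios with Tmem27 were not run, which left 10. The fits were also run on simulated cosine rhythms with independent normal noise. Such data hold no library effects and no courses of another shape. Relative depth and whole reads were recovered from the RPKM steps, and 120 of 120 genes tried came out whole, within 0.0001 of a read in all libraries, in each assay; no count test was run.

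Groups are the 12 timepoints given by the labels, and pools of 2 animals are the replicates. Members and gene lists were chosen with earlier results of these data known. All members are named; of other lists, the 5 rhythmic genes with the largest footprint fold, and for Slc6a19 and Slc7a9 the 5 genes most correlated over the libraries. Results of some other genes and a start window are not reported here. Gene names and positions come from GENCODE vM21 and start windows from RefSeq (GRCm38.p6); 7 of the 8 members matched a RefSeq start window, without Slc6a18.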

Additional observations from a re-analysis of the deposited data

Results flagged for a closer look

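In 4 members the daily course differed between footprints and RNA, by limma's test of the interaction of assay and time over all tested genes. For Slc3a1 the adjusted p was 0.00184 and TE changed 1.25-fold with a peak at 6.34 h, for Slc7a9 it was 0.00553 and TE changed 1.23-fold with a peak at 15.1 h, for Slc3a2 it was 0.0169 with 1.19-fold at 21.9 h, and for Slc7a8 it was 0.0495 with 1.17-fold at 20.4 h. The heavy subunit Slc3a1 and its partner Slc7a9 had TE peaks on different sides of the day, and those of Slc3a2 and its partner Slc7a8 both fell late in the dark phase; the differences between genes were not tested. None of these 4 passed with 1 pool per timepoint, settings that called 0 and 2 genes of 11863. The log2 TE change without replicate 1 and without replicate 2 was 0.40 and 0.24 for Slc3a1, 0.32 and 0.28 for Slc7a9, and 0.26 and 0.24 for Slc3a2, against 0.32, 0.30 and 0.25 with both. For Slc7a8 it was 0.11 and 0.35, against 0.23.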

How the results depend on the processing

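Counts of members called under 12 alternatives stayed within 1.5 times the reported ones except with 1 pool per timepoint, where the lowest and highest counts of members with a 24-h component were 3 and 5 in RNA, 2 and 4 in footprints and 0 and 0 in TE. Over all genes these settings gave 1200 and 4144 calls in RNA against 5761, 460 and 2074 in footprints against 3663, and 0 and 2 in TE against 2028, and without replicate 1 the rhythmic genes numbered 722, 370 and 0. Choosing the 24-h model by Akaike's criterion, which is looser, gave 7090 calls in footprints and 6354 in TE, with 727 TE rhythms against 444 and 7, 7 and 6 members in RNA, footprints and TE, and with a pseudocount of 1 the rhythmic genes numbered 781 against 1210 in RNA and 590 against 899 in footprints. Without replicate 1 or 2 the log2 change of Slc7a8 to Slc3a2 lay between 0.20 and 0.46 in RNA and between 0.17 and 0.31 in footprints and missed the threshold at the lower value in each; the other 8 ratios kept their side of the threshold. Besides the single-replicate settings, the TE component of Slc7a8 missed it under 5 alternatives (adjusted p from 0.0514 to 0.0831), and the footprints of Slc1a1 passed after quantile normalisation (0.0105). No result reversed.

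Over all tested genes, replicate differences of 2 timepoints correlated by 0.03 on average in RNA and 0.02 in footprints. Over the 66 pairs the lowest values were -0.18 and -0.20 and the highest 0.48 and 0.19. The mean was above 0 for 7 and 9 of 12 timepoints. An average over all genes does not exclude a replicate shift in single members. With the replicate number as a block, 7, 5 and 4 members had a component in RNA, footprints and TE, and no member call or ratio call changed. Replicate 2 was higher in footprints at 11 of 12 timepoints for Slc6a18, 10 for Slc1a1 and 9 for Slc3a2 and Slc7a7. The count was 8 for Slc6a19 and Slc7a8, 6 for Slc7a9 and 5 for Slc3a1. In TE it was 10 for Slc6a18 and Slc6a19, 9 for Slc1a1, Slc7a7 and Slc7a8, 8 for Slc3a2, 7 for Slc7a9 and 4 for Slc3a1. In RNA it ran from 3 (Slc1a1) to 7 (Slc3a2). For Slc6a18 footprints R2, the variance share of the whole model, rose from 0.423 to 0.549 with the block, whose own share is included. The fitted 24-h change stayed 1.23-fold.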

Other observations

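Several other apical proteins of the tubule had the pattern of Slc3a1, a 24-h component in RNA and none that passed in footprints; they were picked after their values were seen. Slc7a13, a carrier for acidic amino acids that also pairs with Slc3a1, had RNA that changed 1.41-fold with a peak at 19.6 h (FDR 6.7e-05, limma), while its footprint fit was 1.14-fold (FDR 0.125) and its TE had a component with a peak at 7.80 h (FDR 0.0385). The brush border metalloprotease Mep1a had RNA that changed 1.17-fold with a peak at 19.2 h (FDR 0.00623), footprints of 1.05-fold (FDR 0.552) and a TE peak at 6.07 h (FDR 0.00803). The related Mep1b and the neutral endopeptidase Mme had RNA peaks at 21.2 h and 19.6 h (FDR 0.0249 and 0.00322), footprint fits of 1.02-fold and 1.01-fold (FDR 0.920 and 0.988), and TE peaks at 8.69 h and 7.72 h (FDR 0.0241 and 0.0414).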
